A study of Mus musculus with 12 samples.

Results

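The transcription factors described here are 9 genes that define the hepatocyte programme: Hnf4a, Cebpa, Foxa1, Foxa2, Foxa3, Onecut1, Prox1, Nr5a2 and Nr1i3. They were chosen by gene name, and each name matched 1 row of the count table of 56748 genes, so 9 of 9 were found. Poly-A RNA-seq of mouse samples gave their levels in 12 libraries, 3 in each of 4 groups. The first group was hepatocytes with an ABHD6 knockdown (siABHD6), and the second was wild-type hepatocytes given a scrambled siRNA (siScramble). The third was livers overexpressing ABHD6 (ABHD6 OE) and the fourth was livers given GFP, both from C57BL/6 mice on high-fat food (60% of calories as fat) for 8 weeks. The series' design text names an AAV8 vector with the TBG promoter, which drives expression in hepatocytes, for overexpression in liver. ABHD6 is a lipid hydrolase. The labels give no diet or other treatment for the hepatocytes and no time in culture. Library names call the replicates biological ("biol rep"), but do not say whether the 3 hepatocyte libraries of a group came from separate cultures. The p-values thus measure the spread between these libraries, which may be technical.

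HNF4A is a nuclear receptor that acts as a central activator of hepatocyte genes, and C/EBPα is a leucine zipper factor of metabolic and secretory genes. The FOXA factors are pioneer factors that open liver enhancers, and HNF6, the product of Onecut1, acts with them in liver and bile duct development. PROX1 is a homeobox factor that works as a corepressor of HNF4A and NR5A2. NR5A2, also called LRH-1, regulates bile acid and cholesterol genes, and NR1I3, the constitutive androstane receptor CAR, is the xenobiotic sensor that drives drug-metabolising cytochromes. These factors activate one another's genes in liver, and a decline of the programme is a known feature of hepatocytes placed in culture.

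The promoters of 4 of the factors are shown because their genes span the responses described below, from the largest loss in culture to none detected. Each is 250 bases before to 50 after a gene start in the RefSeq table for GRCm38.p6, a build other than the mm39 build of the deposited counts. Nr1i3 lies at chr1:171213720-171214019 on the plus strand, Cebpa at chr7:35119043-35119342 on the plus strand, Hnf4a at chr2:163506607-163506906 on the plus strand (the first of its starts), and Foxa1 at chr12:57546062-57546361 on the minus strand. Another Hnf4a window, at chr2:163546905-163547204 on the plus strand, is not printed. Which Hnf4a start these samples used was not tested, so the printed window need not be the promoter used in these livers or hepatocytes. Capitals mark a match to a factor motif searched on both strands.
Nr1i3: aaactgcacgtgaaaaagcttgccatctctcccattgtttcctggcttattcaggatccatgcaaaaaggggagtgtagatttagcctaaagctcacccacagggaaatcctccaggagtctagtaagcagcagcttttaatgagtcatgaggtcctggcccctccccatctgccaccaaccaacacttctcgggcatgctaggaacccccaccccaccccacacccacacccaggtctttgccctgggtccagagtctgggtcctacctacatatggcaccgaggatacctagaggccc
Cebpa: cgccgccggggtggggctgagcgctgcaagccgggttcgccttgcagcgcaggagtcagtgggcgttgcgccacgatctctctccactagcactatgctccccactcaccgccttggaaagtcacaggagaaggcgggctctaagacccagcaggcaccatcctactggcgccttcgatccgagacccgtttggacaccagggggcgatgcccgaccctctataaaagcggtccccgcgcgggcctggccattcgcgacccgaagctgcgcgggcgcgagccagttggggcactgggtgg
Hnf4a: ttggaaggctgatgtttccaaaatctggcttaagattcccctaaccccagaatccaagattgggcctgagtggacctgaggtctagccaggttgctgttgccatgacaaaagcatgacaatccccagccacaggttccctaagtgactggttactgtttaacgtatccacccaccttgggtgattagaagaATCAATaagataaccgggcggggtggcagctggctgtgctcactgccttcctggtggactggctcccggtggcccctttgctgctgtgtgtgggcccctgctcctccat
Foxa1: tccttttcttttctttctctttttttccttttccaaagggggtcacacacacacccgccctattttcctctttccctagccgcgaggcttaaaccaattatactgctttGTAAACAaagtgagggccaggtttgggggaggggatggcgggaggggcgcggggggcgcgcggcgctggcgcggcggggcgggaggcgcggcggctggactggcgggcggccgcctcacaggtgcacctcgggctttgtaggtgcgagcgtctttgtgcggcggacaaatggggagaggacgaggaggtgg

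The motifs reported here, not all of those searched, were TGTTTAC for FOXA, CAAAGTCCA for HNF4A, TTGCNNAA for C/EBP, ATCAAT for Onecut factors and CAAGGTCA for NR5A2. All 9 factors had entries, with 14 windows among them. The Foxa1 window held the FOXA motif on the opposite strand, starting 141 bases before the gene start, and 1 of the 14 windows held it, against 3.65% of all 32851 windows in the table. The Onecut motif was in 2 of the 14 windows, the Hnf4a window printed here, 59 bases before the start, and the Foxa2 window, against 7.54% of all windows. A window of Nr5a2 held the C/EBP motif, which 10.8% of all windows held. The Nr1i3 and Cebpa windows, and the Hnf4a window not printed, held none of these motifs.

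Library totals ran from 12295733 to 16234658 counts. Abhd6 matched the labels in every library. It stood at 3.78 to 4.07 CPM (counts relative to the TMM-scaled library size) in siABHD6 hepatocytes against 25.7 to 27.9 CPM in siScramble hepatocytes, and at 136 to 241 CPM in ABHD6 OE livers against 32.2 to 57.2 CPM in GFP livers. Per group, values below are in replicate order. The first principal component held 90.5% of the variance and separated hepatocytes from livers. On the second component, which held 4.57%, GFP liver 3 and ABHD6 OE liver 1 lay at -51.7 and -30.4, and the other 4 livers between 3.81 and 29.8. The biological coefficient of variation was 4.93% among hepatocytes and 28.1% among livers. Summed hepatocyte markers, 7 of 7 detected, came to 9427 to 9920 CPM in hepatocytes against 83650 to 148500 CPM in livers, so the cells labelled as hepatocytes still had the defining transcripts at reduced levels. All 7 had a negative log2 fold change in hepatocytes against livers. The median was -4.72 for siScramble hepatocytes against GFP livers and -4.41 for siABHD6 hepatocytes against ABHD6 OE livers.

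Hepatocytes were set against livers to ask which factors were retained outside the liver. In siScramble hepatocytes against GFP livers, 7 of the 9 factors were lower and none was higher (edgeR quasi-likelihood test, Benjamini-Hochberg adjusted p under 0.05). The background in that comparison was large, with 36.9% of 14215 genes called lower, 33.3% higher and 70.3% in either direction. The 6 remaining libraries, siABHD6 hepatocytes against ABHD6 OE livers, also gave 7 of 9 factors lower and none higher, with 38% of 14315 genes called lower, 35.9% higher and 73.9% either way. In each comparison the hepatocyte libraries of 7 of the 9 factors lay wholly below the livers, without Foxa1 and Onecut1 in the first and without Foxa1 and Foxa2 in the second. For all genes, groups did not overlap for 38.8% lower, 37.6% higher and 76.4% in all in the first comparison, and for 39.8% lower, 39% higher and 78.8% in all in the second. The median log2 fold change of the 9 factors was -1.35 in the first comparison, where that of all genes was -0.03, and -1.27 in the second, where that of all genes was -0.02. Nr1i3 passed the filter on low counts through the livers alone, so its difference was bound to appear. Among genes that reached the filter's minimum in all 3 libraries of both groups, 6 of 8 factors were lower in each comparison, where 4045 of 11362 genes were lower in the first and 4144 of 11406 in the second. The cells in culture differed from the livers in the other cell types present and, in the second comparison, in ABHD6 level, and the high-fat food is given for the livers only. These cannot be told apart from culture. In bulk RNA, fewer cells of a type and less RNA per cell cannot be told apart either.

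**Figure D1:**
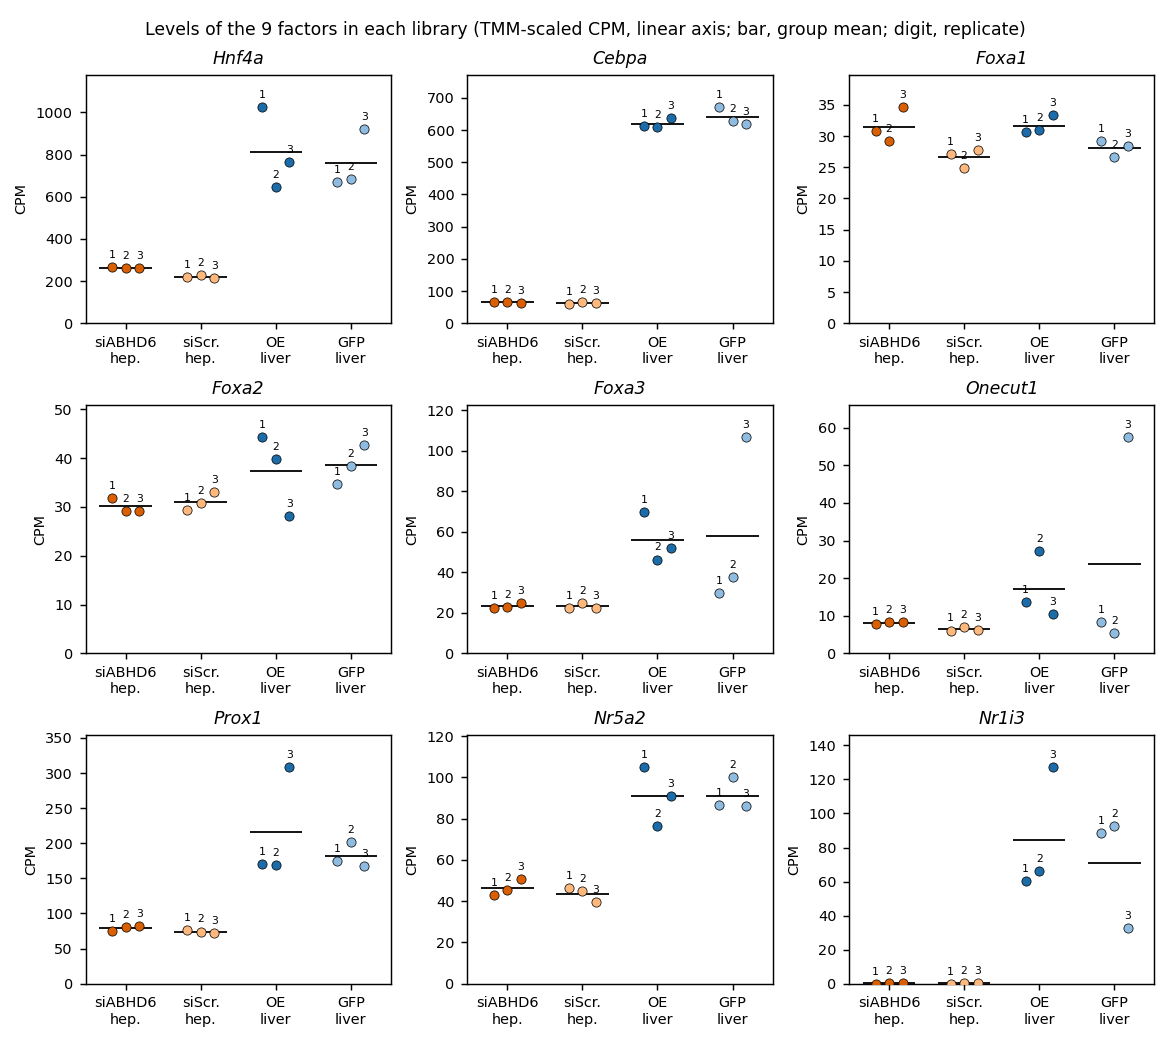
TMM-scaled CPM of each factor (linear y axis from 0) in each library, with siABHD6 and siScramble hepatocytes (hep.) left of ABHD6 OE and GFP livers. Digits are replicate numbers and bars are group means. Cebpa lies between 59.0 and 65.8 CPM in hepatocytes and between 609 and 672 CPM in livers, while the Foxa1 groups share a range.

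The loss was graded. Nr1i3 was nearly absent in culture, Cebpa was 9.63- to 10.4-fold lower, Hnf4a 3.13- to 3.49-fold lower, and Prox1, Foxa3 and Nr5a2 were 1.98- to 2.76-fold lower. Foxa1 did not pass the test in either comparison, and Foxa2 and Onecut1 passed in 1 each.

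Hnf4a (ENSMUSG00000017950, mm39 chromosome 2, 163348728 to 163414830, plus strand) had 266, 260 and 261 CPM in siABHD6 hepatocytes, against 1026, 646 and 767 CPM in ABHD6 OE livers. It had 218, 229 and 216 CPM in siScramble hepatocytes, against 668, 684 and 923 CPM in GFP livers. All 6 hepatocyte libraries lay below all 6 livers, and the hepatocytes varied far less than the livers. The log2 fold change was -1.80 ± 0.15 (SE, adjusted p = 5.36e-05) for siScramble hepatocytes against GFP livers, a level 3.49-fold lower. It was -1.65 ± 0.17 (adjusted p = 7.25e-05) for siABHD6 hepatocytes against ABHD6 OE livers. The antisense gene Hnf4aos overlaps Hnf4a on the opposite strand and had 1 to 5 counts in hepatocytes against 43 to 91 in livers. Whether the counting used strand is not given in the sources used here, but all of those counts together are small beside Hnf4a's 11486 counts in siScramble hepatocytes and 26881 in GFP livers.

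Cebpa (ENSMUSG00000034957, chromosome 7, 34818718 to 34821353, plus strand) had 65.8, 65.7 and 63.5 CPM in siABHD6 hepatocytes, against 612, 609 and 638 CPM in ABHD6 OE livers. It had 59.0, 65.0 and 63.1 CPM in siScramble hepatocytes, against 672, 628 and 620 CPM in GFP livers. Both sets of libraries were tight and far apart, and the levels did not overlap. The log2 fold change was -3.38 ± 0.11 (adjusted p = 9.58e-07) for siScramble hepatocytes against GFP livers, a level 10.4-fold lower, and -3.27 ± 0.09 (adjusted p = 1.71e-07), 9.63-fold lower, for siABHD6 hepatocytes against ABHD6 OE livers. In the first comparison 9.31% of the genes tested had a lower fold change than Cebpa and 17.3% a lower one than Hnf4a. The antisense gene Gm45091 overlaps the start of Cebpa, with at most 26 counts in a library.

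The 3 FOXA genes parted. Foxa1 (ENSMUSG00000035451, chromosome 12, 57587414 to 57593702, minus strand) had 30.8, 29.2 and 34.7 CPM in siABHD6 hepatocytes, against 30.6, 31.0 and 33.4 CPM in ABHD6 OE livers. It had 27.1, 24.9 and 27.8 CPM in siScramble hepatocytes, against 29.2, 26.6 and 28.4 CPM in GFP livers. The groups overlapped in both comparisons. The log2 fold change was -0.10 for siScramble hepatocytes against GFP livers (95% interval -0.32 to 0.11, adjusted p = 0.331) and -0.02 for siABHD6 hepatocytes against ABHD6 OE livers (95% interval -0.25 to 0.20, adjusted p = 0.856). Of all genes tested, 47.9% and 50% had a lower fold change, so Foxa1 stood near the middle of the genome.

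Foxa2 (ENSMUSG00000037025, chromosome 2, 147884797 to 147888889, minus strand) had 31.9, 29.3 and 29.3 CPM in siABHD6 hepatocytes, against 44.3, 39.8 and 28.1 CPM in ABHD6 OE livers, where liver 3 lay below all hepatocytes. It had 29.4, 30.8 and 33.1 CPM in siScramble hepatocytes, against 34.7, 38.4 and 42.8 CPM in GFP livers, with no overlap. The log2 fold change was -0.34 ± 0.10 (adjusted p = 0.0229) for siScramble hepatocytes against GFP livers and -0.33 ± 0.16 (adjusted p = 0.0994) for siABHD6 hepatocytes against ABHD6 OE livers. The first call was lost without siScramble hepatocyte 1 (adjusted p = 0.110) or 2 (adjusted p = 0.0945), with upper-quartile scaling (0.0580), with no filter (0.109), in limma-voom with group weights (0.0501) and in 1 fit over 12 libraries (0.0682). The second comparison passed without ABHD6 OE liver 3 (-0.49, adjusted p = 0.00295).

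Foxa3 (ENSMUSG00000040891, chromosome 7, 18747209 to 18757463, minus strand) had 22.2, 23.0 and 25.1 CPM in siABHD6 hepatocytes, against 69.9, 46.4 and 51.9 CPM in ABHD6 OE livers. It had 22.5, 24.9 and 22.3 CPM in siScramble hepatocytes, against 29.9, 37.8 and 106.8 CPM in GFP livers. Hepatocytes lay below every liver, and GFP liver 3 was far above the other GFP livers. Foxa3 fell by 1.27 ± 0.15 on the log2 scale (adjusted p = 0.000169) in siABHD6 hepatocytes against ABHD6 OE livers and by 1.35 ± 0.46 (adjusted p = 0.0323) in siScramble hepatocytes against GFP livers. Without GFP liver 3 the value against GFP livers was -0.56 (adjusted p = 0.00144), and it missed the threshold without siScramble hepatocyte 1, 2 or 3 (adjusted p = 0.0918, 0.0800 and 0.0919), in limma-voom (0.0612) and on FPKM with a pseudocount of 1 (0.0658) or 0.1 (0.0609).

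Onecut1 (ENSMUSG00000043013, chromosome 9, 74769203 to 74799063, plus strand) had 7.88, 8.24 and 8.41 CPM in siABHD6 hepatocytes, against 13.6, 27.1 and 10.4 CPM in ABHD6 OE livers. It had 6.10, 6.97 and 6.20 CPM in siScramble hepatocytes, against 8.29, 5.45 and 57.4 CPM in GFP livers. GFP liver 2 lay below every hepatocyte library and GFP liver 3 above every other library. The log2 fold change for siABHD6 hepatocytes against ABHD6 OE livers was -1.07 ± 0.33 (adjusted p = 0.0192), and missed the threshold without any one of the siABHD6 hepatocyte libraries 1, 2 and 3 (adjusted p = 0.0596, 0.0557 and 0.0525) and in 1 fit over 12 libraries (0.190). Without ABHD6 OE liver 2 it was -0.56 (adjusted p = 0.0140). For siScramble hepatocytes against GFP livers it was -1.90 ± 0.84 (adjusted p = 0.0800), -0.11 without GFP liver 3 (adjusted p = 0.631) and -2.34 without GFP liver 2 (adjusted p = 0.0303). It also passed with no filter (adjusted p = 0.0374) and in 1 fit over 12 libraries (0.0314). The size of the Onecut1 difference thus varied with single livers.

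Prox1 (ENSMUSG00000010175, chromosome 1, 189850232 to 189902911, minus strand) had 74.6, 80.1 and 82.1 CPM in siABHD6 hepatocytes, against 171, 169 and 308 CPM in ABHD6 OE livers. It had 75.9, 74.3 and 71.8 CPM in siScramble hepatocytes, against 175, 202 and 167 CPM in GFP livers. No hepatocyte library reached a liver. Prox1 fell by 1.46 ± 0.23 on the log2 scale (adjusted p = 0.000698) in siABHD6 hepatocytes against ABHD6 OE livers and by 1.32 ± 0.10 (adjusted p = 3.50e-05) in siScramble hepatocytes against GFP livers. Prox1os, an antisense transcript over the start of Prox1, had 5 to 14 counts in hepatocytes against 115 to 158 in livers, few beside the 3847 counts of Prox1 in siScramble hepatocytes and 6485 in GFP livers.

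Of the nuclear receptors other than Hnf4a, Nr5a2 (ENSMUSG00000026398, chromosome 1, 136770309 to 136888186, minus strand) had 43.2, 45.4 and 50.6 CPM in siABHD6 hepatocytes, against 104.8, 76.5 and 91.2 CPM in ABHD6 OE livers. It had 46.5, 44.8 and 39.4 CPM in siScramble hepatocytes, against 86.8, 100 and 85.9 CPM in GFP livers. The hepatocyte and liver levels were apart in both pairs of groups. Nr5a2 fell by 0.98 ± 0.13 on the log2 scale (adjusted p = 0.000216) in siABHD6 hepatocytes against ABHD6 OE livers and by 1.09 ± 0.10 (adjusted p = 9.15e-05) in siScramble hepatocytes against GFP livers.

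Nr1i3 (ENSMUSG00000005677, chromosome 1, 171041539 to 171048270, plus strand) had 0, 6 and 3 counts in siABHD6 hepatocytes, against 690, 720 and 1369 in ABHD6 OE livers. It had 1, 3 and 2 counts in siScramble hepatocytes, against 1122, 1102 and 361 in GFP livers. Every liver thus carried at least 361 reads and no hepatocyte library more than 6. From the summed counts and scaled library sizes, the siABHD6 hepatocyte level was 0.209% of that in ABHD6 OE livers (exact 95% interval 0.0954% to 0.397%). The siScramble hepatocyte level was 0.160% of that in GFP livers (0.0585% to 0.348%). These intervals cover counting error only. Fitted log2 fold changes were -8.86 ± 0.56 (adjusted p = 5.05e-06) and -9.19 ± 0.66 (adjusted p = 2.43e-05), values that depend on the prior count. Only 0.796% and 0.640% of the genes tested had a lower fold change. Tomm40l, which overlaps Nr1i3 on the opposite strand, had 111 to 180 counts in hepatocytes against 174 to 593 in livers. In each hepatocyte library more reads were counted to Tomm40l than to Nr1i3.

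**Figure D2:**
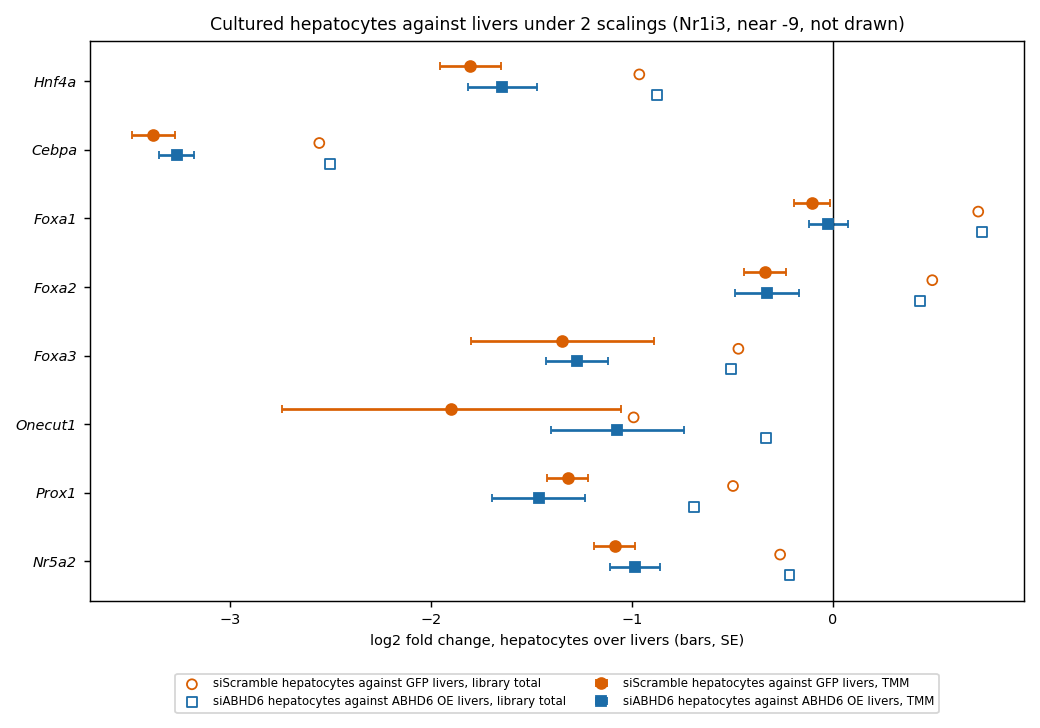
Log2 fold change of 8 factors in hepatocytes over livers (x axis) for siScramble hepatocytes against GFP livers (circles) and siABHD6 hepatocytes against ABHD6 OE livers (squares). Filled symbols with SE bars use TMM scaling and open symbols the library total alone. Cebpa is the lowest of the 8 under both, and Foxa1 and Foxa2 lie at or left of 0 with TMM and right of 0 with library totals.

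How far a factor is called retained depends on the scaling. TMM, which scales libraries by a trimmed mean of gene ratios, set the median gene near 0. With library totals alone the median of all genes moved to 0.80 for siScramble hepatocytes against GFP livers and 0.74 for siABHD6 hepatocytes against ABHD6 OE livers. On that scale the first comparison had 8388 genes higher and 2923 lower, against 4740 higher and 5251 lower with TMM. The second had 8439 higher and 3234 lower, against 5136 higher and 5441 lower. Foxa1 then rose, by 0.73 (adjusted p = 0.000402) and 0.74 (adjusted p = 0.000192) on the log2 scale, and so did Foxa2, by 0.50 (adjusted p = 0.00159) and 0.43 (adjusted p = 0.0499). Nr5a2 no longer passed (-0.26, adjusted p = 0.101, and -0.21, adjusted p = 0.103). Neither did Foxa3 in siScramble hepatocytes against GFP livers (-0.47, adjusted p = 0.312) nor Onecut1 in siABHD6 hepatocytes against ABHD6 OE livers (-0.33, adjusted p = 0.415), while Foxa3 in siABHD6 hepatocytes against ABHD6 OE livers still did (-0.50, adjusted p = 0.0114). Hnf4a (-0.96 and -0.88), Cebpa (-2.56 and -2.5), Prox1 (-0.50 and -0.69) and Nr1i3 (-8.42 and -8.10) were called lower on both scales in both comparisons. Relative to the median gene, Foxa1 was thus level with it under either scaling, and the fold changes of all the other factors were below it. For siScramble hepatocytes against GFP livers, Nr5a2 stood at -1.09 against a median of -0.03 with TMM. With library totals it stood at -0.26 against a median of 0.80. The distance from the median gene was not tested.

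Ratios within a library need no scaling between libraries, so shares of summed FPKM (counts per gene length, on the authors' scaled library size) were compared next. Of the 3 C/EBP genes, Cebpa made up 42.5% ± 1.5 in siABHD6 hepatocytes, against 75% ± 3.0 in ABHD6 OE livers (SD, n = 3 each). It made up 45.3% ± 1.6 in siScramble hepatocytes, against 81.4% ± 1.2 in GFP livers. Cebpb, a family member known for acute-phase and regenerative responses, held 56.6% ± 1.8 in siABHD6 hepatocytes against 24.2% ± 2.8 in ABHD6 OE livers, and 53.9% ± 1.6 in siScramble hepatocytes against 18% ± 1.2 in GFP livers. The order of the 2 genes was thus the opposite in hepatocytes and livers, in every library. Cebpb itself was not higher in culture, with a log2 fold change of -0.95 ± 0.10 (adjusted p = 0.000164) in siScramble hepatocytes against GFP livers.

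Within the FOXA family, Foxa3 held 34.1% ± 1.5 in siABHD6 hepatocytes against 51.9% ± 4.6 in ABHD6 OE livers, and 35.1% ± 2.2 in siScramble hepatocytes against 49.5% ± 14.9 in GFP livers. Foxa2 held 37.8% ± 2.4 in siABHD6 hepatocytes against 29.8% ± 4.7 in ABHD6 OE livers, and 40.3% ± 1.5 in siScramble hepatocytes against 33.0% ± 8.8 in GFP livers. Foxa1 held 28.1% ± 1.4 in siABHD6 hepatocytes against 18.3% ± 3.3 in ABHD6 OE livers, and 24.6% ± 1.5 in siScramble hepatocytes against 17.5% ± 6.2 in GFP livers. The Foxa3 share was lower in every hepatocyte library, up to 37.3%, than in every liver, from 38.6%. The Foxa1 share of siScramble hepatocytes, 22.9% to 25.7%, overlapped that of GFP livers, 10.8% to 23.1%. With 3 libraries against 3, an exact permutation test could not go below 0.10, so these shares are given as ranges.

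**Figure D3:**
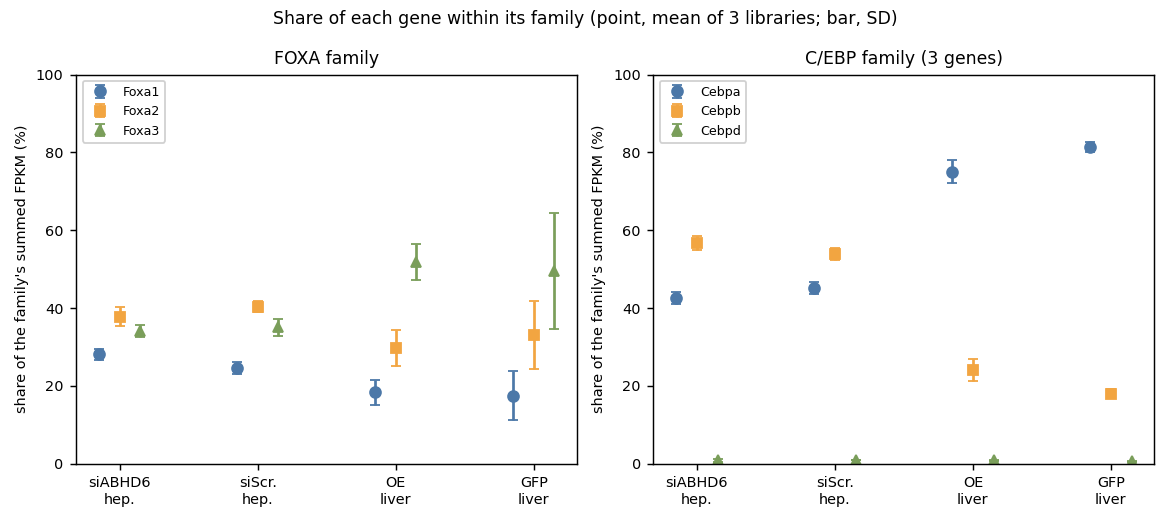
Share (%) of each gene in its family's summed FPKM in siABHD6 and siScramble hepatocytes (left) and ABHD6 OE and GFP livers (right), as the mean of 3 libraries with SD bars. Cebpb lies above Cebpa in hepatocytes and below it in livers, and Foxa3 has the largest mean share in livers but not in hepatocytes.

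Ordered by FPKM, a level per gene length, the 9 factors ranked differently in hepatocytes and livers. Livers had Cebpa first, with 246 ± 7.5 FPKM in ABHD6 OE and 253 ± 13.2 FPKM in GFP livers, then Hnf4a with 176 ± 40.6 and 164 ± 28.3 FPKM (SD, n = 3 each). Hepatocytes had Hnf4a first, with 56.1 ± 0.6 FPKM in siABHD6 and 47.3 ± 1.4 FPKM in siScramble hepatocytes, then Cebpa with 25.5 ± 0.4 and 24.5 ± 1.1 FPKM. Both orders were without overlap in each group. Foxa2 followed in hepatocytes, with 13.1 ± 0.6 FPKM in siABHD6 and 13.6 ± 0.8 FPKM in siScramble cells. It overlapped Foxa3, the next, in siABHD6 hepatocytes, where Foxa1 and Prox1 also overlapped, and in siScramble hepatocytes Foxa1 overlapped Nr5a2. In ABHD6 OE livers the levels of Foxa3, Prox1, Nr1i3, Foxa2 and Nr5a2 overlapped from each neighbour to the next, between 12.5 and 38.6 FPKM. In GFP livers Foxa3 overlapped Prox1, and Foxa2, Nr1i3 and Nr5a2 overlapped, as did Foxa1 and Onecut1. Nr1i3 was last in both hepatocyte groups, at up to 0.0748 FPKM, and Onecut1 was last in both liver groups, at 4.33 ± 2.27 FPKM in ABHD6 OE and 5.95 ± 7.27 FPKM in GFP livers. The 9 factors summed to 136 ± 2.3 FPKM in siABHD6 and 124 ± 2.7 FPKM in siScramble hepatocytes, and to 544 ± 47.0 FPKM in ABHD6 OE and 534 ± 36.6 FPKM in GFP livers. Sums of FPKM in hepatocytes and livers carry the authors' scaling.

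Genes that these factors are known to regulate were lower in culture too. All 30 products of HNF4A or C/EBPα, such as plasma proteins and urea cycle enzymes, were called lower in siScramble hepatocytes against GFP livers, with a median log2 fold change of -4.98. Of these, 4 (Cyp7a1, Cyp8b1, G6pc and Pck1) passed the filter through the livers alone and were bound to be lower. The other 26 were lower too, with a median of -4.48. Pck1, a gluconeogenic enzyme, had 5 counts in siScramble hepatocytes against 57225 in GFP livers. G6pc, the glucose-6-phosphatase subunit, had 1 count against 8004, a liver level 11640 times as high with an exact 95% counting interval of 2089 to 460000. Cyp7a1, the rate-limiting enzyme of bile acid synthesis, had 0 counts in siScramble hepatocytes and 5445 in GFP livers, so it was at least 2640-fold lower, with the 0 taken as 3 counts over the group. With Cyp7a1 at that bound the median was unchanged. In siABHD6 hepatocytes against ABHD6 OE livers, 30 of 30 were lower, with a median of -5.01, and the same 4 passed through the livers alone.

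Of targets of NR5A2, 9 of the 9 in the table were called lower in each of the 2 comparisons, with medians of -5.26 and -5.45. Cyp7a1 and Cyp8b1 passed through the livers alone, and without them 7 of 7 were lower, with medians of -5.17 and -5.00. Cyp8b1, a sterol hydroxylase of bile acid synthesis, had 6 counts in siScramble hepatocytes against 14651 in GFP livers. Cyp7a1 belongs to this list and to the preceding one.

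Of 18 targets of CAR, 15 were tested in siScramble hepatocytes against GFP livers, with 10 called lower and 2 higher and a median of -1.97. The lowest in this list were Cyp2c29 (-5.86 ± 0.35), Cyp2c37 (-5.67 ± 0.31) and Cyp2c50 (-5.66 ± 0.17), cytochromes with near-identical copies among which reads could be split. The 2 higher genes were the glutathione transferase gene Gsta1 (6.48 ± 0.61), which also has near-identical copies, and Gadd45b (4.91 ± 0.40), a stress-response gene. Both passed the filter through the hepatocytes alone and were bound to be higher. Each of these 5 passed the test, with adjusted p-values between 8.75e-07 and 8.70e-05 in edgeR. In siABHD6 hepatocytes against ABHD6 OE livers, 12 of 16 were lower and 2 higher, with a median of -2.13. Here 1 gene passed the filter through the livers alone, and Gsta1 and Gadd45b again through the hepatocytes alone. Of the 13 that reached the filter's minimum in both groups, 11 were lower and 0 higher, with a median of -2.25.

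Other liver-enriched factors were mostly lower. Of 29 tested in siScramble hepatocytes against GFP livers, 21 were lower and 2 higher, with a median of -1.05. Of the 21 lower, 1 passed the filter through the livers alone and was bound to be lower. Among the 28 that reached the filter's minimum in both groups, 20 were lower and 2 higher. The lowest among those well expressed were Nr0b2 (-5.70 ± 0.31), the corepressor SHP, Ppara (-5.25 ± 0.28), the fatty acid receptor, and Klf15 (-5.25 ± 0.15), a factor of fasting metabolism, with adjusted p-values of 7.17e-06, 5.89e-06 and 7.46e-07 in edgeR. Zbtb20, a repressor of Afp in liver, rose by 1.90 ± 0.13 (adjusted p = 1.81e-05), and Zhx2, another repressor of Afp, by 0.24 ± 0.09 (adjusted p = 0.0474). With library totals alone, 14 of the 29 were lower and 9 higher, so the direction of part of this list depends on the scaling.

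Coregulators of nuclear receptors were mostly higher. In siScramble hepatocytes against GFP livers, 11 of 14 were higher and 2 lower, with a median of 0.53. Of all genes tested, 33.3% were called higher and 36.9% lower. Prmt1, an arginine methyltransferase, rose by 1.96 ± 0.10 (adjusted p = 5.61e-06) and Nrip1, a ligand-dependent corepressor, by 1.17 ± 0.21 (adjusted p = 0.00206). The 2 that fell were the coactivators Ppargc1a (-1.77 ± 0.34, adjusted p = 0.00269) and Ppargc1b (-1.68 ± 0.31, adjusted p = 0.00231). With library totals 12 were higher and 1 lower, where 8388 of all 14215 genes were higher and 2923 lower. That scaling moved the median of all genes to 0.80, so it is no separate check of the rise.

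Of 24 genes known from fetal liver or from dedifferentiation in culture, 19 were tested, with 15 higher, 3 lower and a median of 2.37. The cytoskeletal and calcium-binding genes S100a6 (6.79 ± 0.23), Tmsb10 (5.52 ± 0.31) and S100a11 (5.43 ± 0.25) led, with adjusted p-values between 1.14e-06 and 7.44e-06 in edgeR. S100a6 passed the filter through the hepatocytes alone and was bound to be higher. Of the 3 lower genes, 1 passed through the livers alone and was bound to be lower. Among the 17 that reached the filter's minimum in both groups, 14 were higher and 2 lower, with a median of 2.37. Snai2, a repressor of epithelial genes (-3.50 ± 0.34, adjusted p = 9.55e-05), and Ccnd1, cyclin D1 (-2.91 ± 0.11, adjusted p = 1.91e-06), fell instead.

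**Figure D4:**
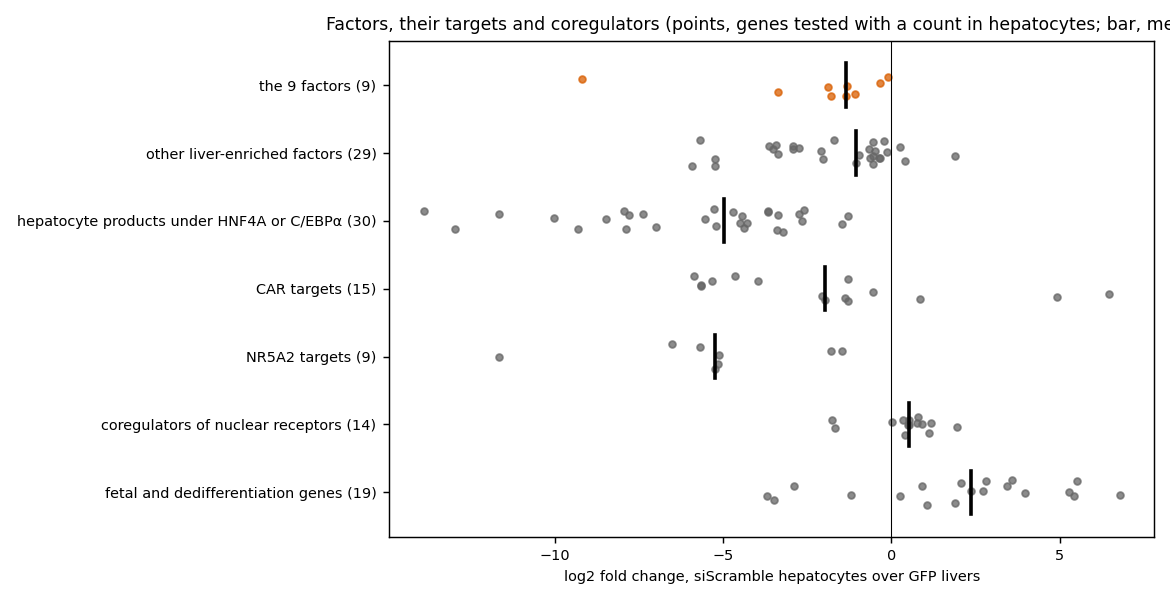
Log2 fold change in siScramble hepatocytes over GFP livers (x axis, TMM) for the 9 factors and 6 gene lists (rows, number tested in brackets). Points are genes with at least 1 count in siScramble hepatocytes, and bars are medians over all genes tested. The medians of the products and of the NR5A2 targets, -4.98 and -5.26, lie left of that of the 9 factors, -1.35, and the medians of the coregulators and of the fetal and dedifferentiation genes lie right of 0.

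Cell types other than hepatocytes differed along with these results, and their part in them was not tested. Summed stellate cell markers came to 2.12 to 5.38 CPM in hepatocytes against 165 to 543 CPM in livers. Of the 8, 6 reached the filter's minimum through the GFP livers alone, and the other 2 were called lower in siScramble hepatocytes. Endothelial markers came to 22.1 to 24.3 CPM in hepatocytes against 308 to 427 CPM in livers, and 9 of 9 were called lower, 2 of which passed through the livers alone. Lrat and Col1a2, stellate markers, were each at 0 in 1 hepatocyte group, and so was the endothelial marker Clec4g. Kupffer cell markers came to 50.3 to 66.4 CPM in hepatocytes, against 195 to 430 CPM in livers, with Timd4 at 0 in hepatocytes. Of the 8, 7 passed the filter through the livers alone and were lower, and Cd68, a macrophage lysosomal gene, was called higher in siScramble hepatocytes against GFP livers (62.3 against 10.2 CPM). Summed cholangiocyte markers came to 533 to 708 CPM in hepatocytes against 77.7 to 133 CPM in livers. Spp1 held most of that sum, and Cftr was at 0 in both hepatocyte groups and Krt7 in siABHD6 hepatocytes. Of the 7, 4 were tested in each comparison of hepatocytes with livers, with 3 called higher and 1 lower. Krt19 passed the filter through the hepatocytes alone, and of the other 3, 2 were higher and 1 lower. Lymphocyte markers came to at most 0.553 CPM in hepatocytes and 25.3 CPM in livers, with Ms4a1, Cd3e and Cd3g at 0 in both hepatocyte groups.

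In culture, siABHD6 was set against siScramble to ask whether the knockdown moved these factors. Of the 8 tested, 2 were higher and none lower, in a comparison where 7.81% of 13449 genes were called higher, 7.61% lower and 15.4% either way. Hnf4a rose by 0.23 ± 0.04 on the log2 scale, 1.17-fold (adjusted p = 0.000127), and its 260 to 266 CPM in siABHD6 hepatocytes lay above the 216 to 229 CPM in siScramble hepatocytes. Foxa1 rose by 0.23 ± 0.07 (adjusted p = 0.0388), with 29.2 to 34.7 CPM in siABHD6 hepatocytes above 24.9 to 27.8 CPM in siScramble hepatocytes. The Foxa1 call was lost in DESeq2 (adjusted p = 0.0816), in limma-voom (0.0504) and without siABHD6 hepatocyte 1 or 3 or siScramble hepatocyte 1 or 2 (adjusted p up to 0.225). In 1 fit over all 12 libraries, which takes the larger spread of the livers, neither passed (adjusted p = 0.929 for Hnf4a and 0.539 for Foxa1).

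Onecut1 did not overlap between these groups either, with 7.88 to 8.41 CPM in siABHD6 and 6.10 to 6.97 CPM in siScramble hepatocytes, but missed the threshold (0.33 ± 0.13, adjusted p = 0.0851). These 3 of the 8 factors tested were non-overlapping and higher, where 15.7% of all genes tested were, 15.5% were non-overlapping and lower, and 31.2% did not overlap in all. For Cebpa the log2 fold change was 0.04 (95% interval -0.05 to 0.14), for Prox1 0.08 (-0.02 to 0.17), for Nr5a2 0.07 (-0.07 to 0.21), for Foxa2 -0.06 (-0.20 to 0.08) and for Foxa3 -0.00 (-0.16 to 0.15). Nr1i3 was too low to be tested in culture.

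Among the products of HNF4A or C/EBPα, 26 were tested in siABHD6 against siScramble hepatocytes, with 8 higher, 2 lower and a median of 0.20. Fgb, a fibrinogen chain, and F10, coagulation factor X, each rose by 0.41 (adjusted p = 1.83e-07 and 3.80e-06), and the 2 that fell were Alb, by 0.06 (adjusted p = 0.0357), and Rbp4, by 0.29 (adjusted p = 7.05e-06). None of 7 NR5A2 targets passed. Of 28 other liver-enriched factors, 3 were higher and 3 lower, and Cebpb and Nr1i2 were among the higher ones. The genes of these lists named for the knockdown were picked after their values were seen. Of 15 CAR targets 4 were higher and 2 lower, of 14 coregulators 1 was higher and 2 lower, and of 18 fetal and dedifferentiation genes 5 were higher and 3 lower.

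In livers, ABHD6 OE was set against GFP. None of the 9 factors passed (edgeR), and neither did any of the 13910 genes tested, so 0% were called. At an unadjusted p under 0.05 there were 0 of the 9 factors and 301 genes in all. DESeq2 called 8 genes and limma-voom 0, with none of the 9 among them. No gene of the 6 lists passed either. Abhd6 itself had an adjusted p of 1.00 at a log2 fold change of 2.04 ± 0.28. It passed in DESeq2 (adjusted p = 1.31e-08), with no filter (0.0237) and in 1 fit over 12 libraries (0.0113), so edgeR with its filter on these 6 libraries missed a difference that these 3 settings called. The intervals show what could not be detected. They ran from -0.38 to 0.30 for Cebpa, from -0.45 to 0.66 for Hnf4a, and from -2.48 to 1.54 for Onecut1 on the log2 scale.

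Foxa1 was the only one of the 9 whose liver groups did not overlap, with 30.6 to 33.4 CPM in ABHD6 OE livers and 26.6 to 29.2 CPM in GFP livers. Its log2 fold change was 0.18 ± 0.11 (adjusted p = 1.00 in edgeR). Of all genes, 3.22% were non-overlapping and higher in ABHD6 OE livers, 3.53% lower, and 6.75% did not overlap in all. Onecut1 changed sign with 1 library. It was at -0.47 ± 0.86 with all livers and at 1.31 (adjusted p = 0.958) without GFP liver 3. Foxa3 was at -0.05 ± 0.46 with all livers and at 0.73 (adjusted p = 0.958) without GFP liver 3.

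The livers differed from one another by factor. Cebpa was among the steadiest genes, with an SD of 0.0519 log2 units over the 6 livers, and 99.2% of 12088 genes varied more. Onecut1 had an SD of 1.23 log2 units and a 10.3-fold range, and 1.51% of genes varied more. Nr1i3 (SD 0.675, 6.92% more variable) and Foxa3 (SD 0.652, 7.53% more variable) followed, against a median SD of 0.228 over genes. GFP liver 3, one of the 2 livers that stood apart on the second component, had the highest Foxa3 and Onecut1 and the lowest Nr1i3 of the 6. ABHD6 OE liver 1, the other, had the highest Hnf4a, Foxa2 and Nr5a2. ABHD6 OE liver 3 had the highest Prox1, Foxa1 and Nr1i3 and the lowest Foxa2. In the 6 hepatocyte libraries Cebpa again varied little, with an SD of 0.0587 log2 units, and 83.9% of 11413 genes varied more.

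**Figure D5:**
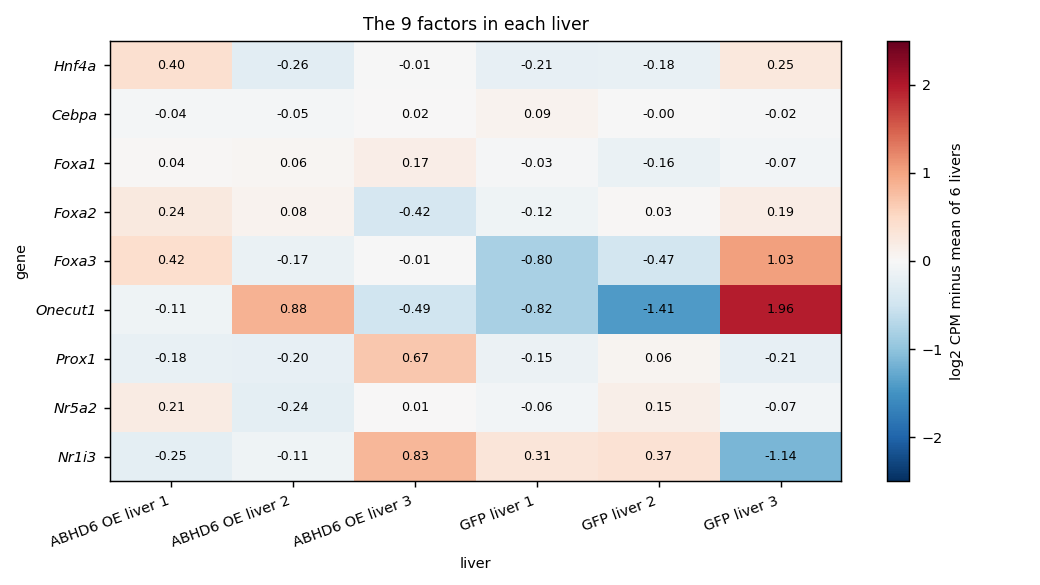
Log2 CPM of each factor in each liver minus its mean over the 6 livers (colour and printed value), ABHD6 OE livers left of GFP livers. Onecut1 spans -1.41 in GFP liver 2 to 1.96 in GFP liver 3, and Cebpa stays between -0.05 and 0.09.

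The 2 comparisons of hepatocytes with livers share no library, and the difference between them was tested over all 12. None of the 9 factors passed (smallest unadjusted p = 0.367, for Cebpa; adjusted p 0.930 to 1.00 in edgeR), where 19 of 15244 genes, 0.125%, were called, 0.0262% higher and 0.0984% lower. For Cebpa the difference was 0.11 (95% interval -0.14 to 0.35), for Foxa1 0.07 (-0.20 to 0.35) and for Hnf4a 0.15 (-0.37 to 0.66), siABHD6 hepatocytes against ABHD6 OE livers minus siScramble hepatocytes against GFP livers. For Onecut1 the interval ran from -1.33 to 2.97 and for Nr1i3 from -3.02 to 3.65, so these libraries bound the difference only loosely for those 2. DESeq2 called 105 genes in all and none of the 9.

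For each factor, the protein-coding genes with the most similar pattern over the 12 libraries were found by the root-mean-square difference of centred log2 CPM, among 10859 genes. Cebpa was closest to Adk (0.0803) and Bckdhb (0.10), and Hnf4a to Slc31a1 (0.109) and Esrp2 (0.114). Foxa1 was closest to S100a16 (0.0859) and Ss18 (0.0944), and Foxa2 to Alg1 (0.0951) and Rfc2 (0.108). Nr5a2 was closest to Lamp2 (0.10) and Oxr1 (0.102), and Prox1 to Sec24a (0.137) and Coa6 (0.148). The nearest genes of Foxa3 were Serping1 (0.176) and Il13ra1 (0.177). Nr1i3 and Onecut1 had no close neighbour by comparison, with Akr1d1 (0.449) and Vipr1 (0.463) nearest to Nr1i3, and Zdhhc14 (0.496) and Tgm1 (0.506) nearest to Onecut1.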

How the data were processed

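Poly-A RNA was sequenced in 12 libraries, grouped by the labels. The authors deposited raw counts per gene, and FPKM values beside them; HISAT2, DESeq2 and the mm39 build are listed in the submitters' processing notes, while tool versions, the counting program and its strand setting are not given in the sources used here. The deposited FPKM equal the count divided by gene length and by 1 scaling number per library (largest relative deviation 5.08e-09), which was 1.25 to 1.27 times a hepatocyte library's total count and 0.671 to 0.780 times a liver library's. Each column matched 1 sample.

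Each comparison was fitted to its own 6 libraries, and the difference between the culture comparisons to all 12, with edgeR 4.0.16 in R 4.3.3 (filterByExpr, TMM, quasi-likelihood F test, Benjamini-Hochberg over all genes tested, calls at an adjusted p under 0.05). CPM printed are on TMM sizes over 12 libraries, while the shares of all genes whose groups did not overlap used TMM sizes within each comparison. Alternatives were other scalings and filters, DESeq2 1.42.0, limma 3.58.1 (voom, and FPKM on a log2(value + 1) or log2(value + 0.1) scale), protein-coding genes, 1 fit over 12 libraries, the replicate number as a block, and leaving out each library. The fit was tested on counts simulated at each comparison's common spread. Of 2-fold changes it recovered 53.7% in siScramble hepatocytes against GFP livers and 85.1% in siABHD6 hepatocytes against ABHD6 OE livers. It recovered 100% in siABHD6 against siScramble hepatocytes and 23.9% in ABHD6 OE against GFP livers. For 1.5-fold changes the values were 5.97%, 23.9%, 98.5% and 2.99% in that order. False calls made up between 2.35% and 6.19% of calls. The simulation changed only a small set of genes and gave all genes 1 common spread. In the real data 70.3% of genes were called in siScramble hepatocytes against GFP livers and 73.9% in siABHD6 hepatocytes against ABHD6 OE livers. The adjusted threshold is easier to pass where many genes change. The recoveries thus hold for the simulated setting and do not give the share of real changes found. A gene passed the filter through 1 group alone where fewer than 3 libraries of the other group reached the filter's minimum.

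The 9 genes and the gene lists were chosen with earlier results of these data known. Beside the 9, the text names Abhd6, up to 3 genes per list and direction with the largest called change at a mean log2 CPM of at least 1, the 2 nearest patterns per factor, overlapping genes, and markers. Some genes that this rule gives are not reported here. Libraries of a group differed by more than counting noise (chi-square per gene 2.59 to 4.01 in hepatocytes and 17.5 to 240 in livers), so none was counted as a repeat.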

Additional observations from a re-analysis of the deposited data

How the results depend on the processing

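Across 968 recomputed values, 842 kept their direction and side of the threshold or stayed near the reported value. This count pools settings that share libraries, and comparisons in which no factor was called under any setting, so it is no rate of agreement. Hnf4a, Cebpa, Prox1 and Nr1i3 stayed called lower in both comparisons of hepatocytes with livers under every alternative that tested them; with at least 1 CPM required in every library Nr1i3 was not tested. The precision of Nr1i3 in culture is limited by its 9 counts in siABHD6 and 6 in siScramble hepatocytes.

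Library totals alone turned 2 factors in the culture comparisons: Foxa1 to 0.73 in siScramble hepatocytes against GFP livers and 0.74 in siABHD6 hepatocytes against ABHD6 OE livers, and Foxa2 to 0.50 and 0.43. Those shifts follow from the scaling itself, which moves all genes. Foxa1 in siABHD6 hepatocytes against ABHD6 OE livers, at -0.02 with TMM, was also at 0.0513 with upper-quartile scaling and at 0.0518 with no filter, and between -0.0805 and 0.0458 when libraries were left out in turn.

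In siABHD6 against siScramble hepatocytes, the factors called went to 1 in DESeq2, 1 in limma-voom, 1 with FPKM + 1, 1 with FPKM + 0.1 and 0 in 1 fit over 12 libraries, and to 1 to 2 when libraries were left out. Genes called in all, 2075, went to 1313 with FPKM + 1, 1302 with FPKM + 0.1 and 41 in 1 fit over 12 libraries. Foxa3, at -0.00, was at 0.0112, 0.0120 and 0.0127 under these 3 in that order, and between -0.0583 and 0.0434 when libraries were left out.

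In ABHD6 OE against GFP livers no factor was called under any alternative, while genes called in all went to 2 with no filter, 8 in DESeq2, 4 in 1 fit over 12 libraries and 1 without both GFP liver 3 and ABHD6 OE liver 1, an alternative chosen after seeing the data. Onecut1 was at 0.24 in limma-voom, 0.24 with group weights, 0.0534 with FPKM + 1, 0.17 with FPKM + 0.1, 0.23 with the replicate block and 1.45 without both livers, and between -0.97 and 1.31 when 1 was left out. Foxa3 was at 0.0306 with library totals, 0.17 in limma-voom with or without weights, 0.15 with FPKM + 1, 0.16 with FPKM + 0.1, 0.16 with the block and 0.54 without both livers, and between -0.36 and 0.73 when 1 was left out. Nr5a2 was at -0.00567 with upper-quartile scaling, -0.00586 in limma-voom, -0.00585 with group weights, -0.00622 with FPKM + 1, -0.00693 with FPKM + 0.1, -0.00083 in 1 fit over 12 libraries, -0.00482 with the block, at -0.15 without both livers, and between -0.11 and 0.11 when 1 was left out. Foxa2 was at 0.0023 with library totals and between -0.18 and 0.12 when 1 was left out; Hnf4a lay between -0.10 and 0.26, Prox1 between -0.10 and 0.40 and Nr1i3 between -0.17 and 0.48. The cause of these sign changes was not tested.

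For the difference between the culture comparisons, genes called in all, 19, came to 105 in DESeq2, 6 with the replicate block and 166 without both livers, and to between 4 (without siABHD6 hepatocyte 3) and 58 (without GFP liver 3) when 1 was left out; no factor was called in any. No pairing by replicate number was seen in hepatocytes, where deviations of same-numbered libraries correlated at -0.00 to 0.03. In livers the correlations were -0.46, 0.46 and -0.17. GFP liver 3 and ABHD6 OE liver 1 stood apart from the other livers, so these values cannot settle whether the numbers pair the livers. With the replicate block, 7, 7, 2, 0 and 0 factors were called in the 5 comparisons in the order given in the report, as without it.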
